A study of Bos taurus with 24 samples.

Results

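The genes described here are 9 that are commonly used as references in embryo PCR, namely YWHAZ, SDHA, GAPDH, ACTB, HPRT1, PPIA, TBP, H2AFZ and UBB. They were taken by their symbols from a table of 24621 rows, and were not chosen for any value in it. Of the 9 symbols, 8 had a row: 7 exactly as written, and ACTB as a pair of rows named ACTB_1 and ACTB_2, whose loci are not stated. GAPDH was not analysed here. Of the resulting 9 rows, 8 reached at least 15 counts in every embryo of at least 1 condition and were tested, as did 7557 of the rows in all. ACTB_1 was below that limit.

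The 24 samples were single early blastocysts of Holstein cattle, all sired by the same bull and all graded as quality 1. The 8 in vivo derived embryos (5 male, 3 female) were flushed from 3 superovulated cows, and 16 were produced in vitro from slaughterhouse ovaries. Of these, 8 (3 male, 5 female) were matured and cultured with fetal bovine serum, and 8 (5 male, 3 female) in serum-free medium, with EGF during maturation, and with bovine serum albumin, insulin, transferrin and selenium during culture. The cultured blastocysts came from 3 in vitro runs and were harvested on consecutive days after insemination. The in vivo derived ones were flushed on the later of these days. Which cow, ovary collection or culture run an embryo came from is not given in the labels, so origin, oocyte source and medium cannot be told apart when in vivo and cultured embryos are compared.

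A reference gene is the denominator of a PCR measurement. The level of a target is divided by that of the reference, so any change of the reference between conditions moves every target by the same factor in the opposite direction. References are usually taken from unrelated processes, so that a shared response does not hide a change. YWHAZ is a 14-3-3 adaptor protein, SDHA the flavoprotein subunit of succinate dehydrogenase, and ACTB the cytoplasmic beta-actin. HPRT1 salvages hypoxanthine and guanine and lies on the X chromosome, PPIA is cyclophilin A, TBP is the TATA-binding subunit of TFIID, H2AFZ is the histone variant H2A.Z, and UBB encodes polyubiquitin.

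Libraries held between 3253051 and 9000447 fragments counted in exons, with a median of 4454031. The 9 rows together took between 2.17% and 4.27% of them. Levels are given as CPM, the count scaled to a library of fixed size after TMM normalization, which is not divided by gene length, so that levels of different genes are not compared. Marker genes of the cell types moved with the conditions. The summed level of 7 trophectoderm markers, the keratin gene KRT8 being the most abundant, was 7360 to 14687 CPM in vivo, 322 to 5194 CPM in serum and 5016 to 27705 CPM in serum-free embryos. The keratins carried most of this difference, KRT8 averaging 8976 CPM in vivo and 1099 CPM in serum. The trophectoderm factors GATA3 (83.5 and 23.0 CPM) and GATA2 (38.2 and 9.80 CPM) were also lower in serum on average. TFAP2C (204 and 258 CPM) and TEAD4 (32.7 and 54.3 CPM) were higher. CDX2, a defining transcription factor of trophectoderm, averaged 0.840 CPM over all embryos, with 1.25 CPM in vivo and 0.522 CPM in serum. The summed level of 5 hypoblast markers was 336 to 588, 27.0 to 233 and 129 to 404 CPM, and that of 4 inner cell mass markers 207 to 270, 173 to 314 and 126 to 401 CPM. Within the latter, NANOG averaged 12.4 CPM in vivo and 64.2 CPM in serum and SOX2 8.32 and 20.2 CPM, against 214 and 148 CPM for POU5F1. Most of the hypoblast sum was PDGFRA, which averaged 435 CPM in vivo, 107 CPM in serum and 216 CPM in serum-free embryos. GATA6 averaged 19.0, 21.6 and 16.5 CPM. HNF4A (4.79, 0.0454 and 2.88 CPM) and GATA4 (1.67, 0.378 and 0.611 CPM) were low throughout and lowest in serum. The defining hypoblast factor SOX17 averaged 0.0184 CPM and the inner cell mass ligand FGF4 0.0608 CPM. The 10 cumulus and granulosa markers summed to 4.83 to 58.7 CPM over all embryos, with PTX3 at 0 in every one, and the 5 leucocyte markers to at most 10.8 CPM. The part of these shifts in the results below was not tested. In whole embryos, fewer cells of a type and less RNA per cell cannot be told apart.

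YWHAZ passed no test between conditions, and within serum it was the most uneven of the tested rows. Its level was 121, 159 and 225 CPM (lowest, median and highest) in vivo, 54.5, 148 and 163 CPM in serum, and 121, 168 and 203 CPM in serum-free embryos. A pair of female serum embryos, B2 with 57.0 CPM and B3 with 54.5 CPM, lay below all others, while the remaining 6 serum embryos lay between 145 and 163 CPM. The means were 167 ± 32.2, 129 ± 45.5 and 165 ± 31.2 CPM (SD, n = 8 each). Serum embryos did not pass the test against in vivo derived ones (log2 fold change −0.39, SE 0.23, 95% interval −0.86 to 0.08, adjusted p = 0.195 by edgeR's quasi-likelihood test). Serum-free embryos differed from in vivo derived ones by −0.02 (SE 0.14, adjusted p = 0.950).

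SDHA fell in serum. Its level was 719, 861 and 1099 CPM in vivo, 279, 542 and 689 CPM in serum, and 609, 730.1 and 911 CPM in serum-free embryos. Every serum embryo lay below every in vivo derived one, and serum-free embryos overlapped with both. The means were 893 ± 126, 508 ± 164 and 722 ± 94.6 CPM (SD, n = 8 each). The decrease in serum was 1.78-fold (log2 fold change −0.83, SE 0.18, adjusted p = 0.00279). The serum-free embryos were lower by −0.30 on the log2 scale (SE 0.11), which did not pass (adjusted p = 0.0922), and their difference from serum of 0.53 (SE 0.19) did not either (adjusted p = 0.0560). That last difference passed in 3 of the 16 fits that left out 1 embryo (adjusted p = 0.0499 without B1, 0.0370 without B4 and 0.0372 without B6), and the former in 1 (adjusted p = 0.0495 without C3). The difference from serum also passed in 1 fit over all 24 embryos (adjusted p = 0.0208), with DESeq2 (0.0416), with edgeR's exact test (0.0492) and when the limit of 15 counts was asked of both cultures (0.0490). In the other 9 of 13 alternatives it did not pass. Among these it was 0.35 without embryos B2 and B3 (adjusted p = 0.166 by edgeR). The adjusted p by edgeR was 0.150 in males only and 0.499 in females only.

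ACTB_2 was also lower in serum. Its level was 24197, 26769 and 32491 CPM in vivo, 10983, 14603 and 21015 CPM in serum, and 22506, 27552 and 41138 CPM in serum-free embryos. The serum embryos overlapped with neither of the other conditions. The decrease in serum was 1.81-fold (log2 fold change −0.86, SE 0.16, adjusted p = 0.000909), and serum-free embryos were 1.88-fold above serum (0.91, SE 0.18, adjusted p = 0.00489). Between serum-free and in vivo derived embryos the difference was 0.05 (95% interval −0.18 to 0.28, adjusted p = 0.831). ACTB_1, the row that was not tested, held 0 to 272 counts per embryo and up to 62.6 CPM. It gave 0 counts in the serum embryos B2 and B5, which allows up to 3 counts in each. Only uniquely mapped fragments were counted, so the division of fragments between the actin rows, and between ACTB and the close copy ACTG1, is uncertain.

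HPRT1 rose in both culture systems. Its level was 150.5, 192 and 261 CPM in vivo, 291, 334 and 511 CPM in serum, and 201, 318 and 491 CPM in serum-free embryos. All serum embryos lay above all in vivo derived ones, and serum-free embryos overlapped with both. The increase was 1.88-fold in serum (log2 fold change 0.91, SE 0.16, adjusted p = 0.000672) and 1.66-fold in serum-free embryos (0.73, SE 0.17, adjusted p = 0.0148). The cultured conditions differed by −0.18 (95% interval −0.59 to 0.22, adjusted p = 0.537).

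PPIA passed no test between conditions. Its level was 857, 997 and 1083 CPM in vivo, 731, 906 and 1397 CPM in serum, and 959, 1026 and 1579 CPM in serum-free embryos. The 3 conditions overlapped. The log2 fold changes were −0.06 in serum (95% interval −0.33 to 0.21, adjusted p = 0.761) and 0.21 in serum-free embryos (−0.02 to 0.44, adjusted p = 0.274) against in vivo derived ones.

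TBP was measured with few counts, 18 to 127 per embryo. Its level was 4.32, 7.63 and 11.9 CPM in vivo, 6.63, 9.39 and 14.3 CPM in serum, and 4.78, 8.35 and 12.4 CPM in serum-free embryos, and the 3 conditions overlapped. The log2 fold changes against in vivo derived embryos were 0.24 in serum (95% interval −0.33 to 0.81, adjusted p = 0.522) and 0.05 in serum-free embryos (−0.52 to 0.63, adjusted p = 0.935). Counting error alone gives TBP a coefficient of variation of 15.7% to 17.8% per condition, against an observed 26.8% to 33.5%. In the other tested rows counting error was at most 4.56%.

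H2AFZ rose in both culture systems. Its level was 797, 945 and 975 CPM in vivo, 1047, 1327 and 2543 CPM in serum, and 1004, 1072 and 1399.8 CPM in serum-free embryos. All cultured embryos lay above all in vivo derived ones. The increase was 1.54-fold in serum (log2 fold change 0.62, SE 0.16, adjusted p = 0.00773) and 1.25-fold in serum-free embryos (0.33, SE 0.09, adjusted p = 0.0399). The second call was lost in 8 of the 16 fits that left out 1 embryo, namely without the in vivo derived A1, A2, A3, A7 or A8 or the serum-free C1, C4 or C6. The adjusted p ranged from 0.0235 to 0.0716 over all 16. Histone and cyclophilin genes have close copies in the genome, so counts of H2AFZ and PPIA depend on unique mapping.

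UBB fell in serum-free embryos. Its level was 5799, 6216 and 6762 CPM in vivo, 4836, 6984 and 10753 CPM in serum, and 4348, 4734 and 5509 CPM in serum-free embryos. Serum-free embryos lay below all in vivo derived ones, while serum embryos spread above and below them. The decrease against in vivo derived embryos was 1.29-fold (log2 fold change −0.37, SE 0.08, adjusted p = 0.0112) and that against serum 1.42-fold (−0.51, SE 0.15, adjusted p = 0.0328). The latter was −0.35 with adjusted p = 0.0929 without embryos B2 and B3, and its call was also lost in 3 of the 16 fits that left out 1 embryo (adjusted p = 0.0522 without B3, 0.0541 without C10 and 0.0504 without C7). Serum and in vivo derived embryos differed by 0.14 (adjusted p = 0.496). UBB is built of repeated ubiquitin units, so its counts depend on unique mapping.

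**Figure D1:**
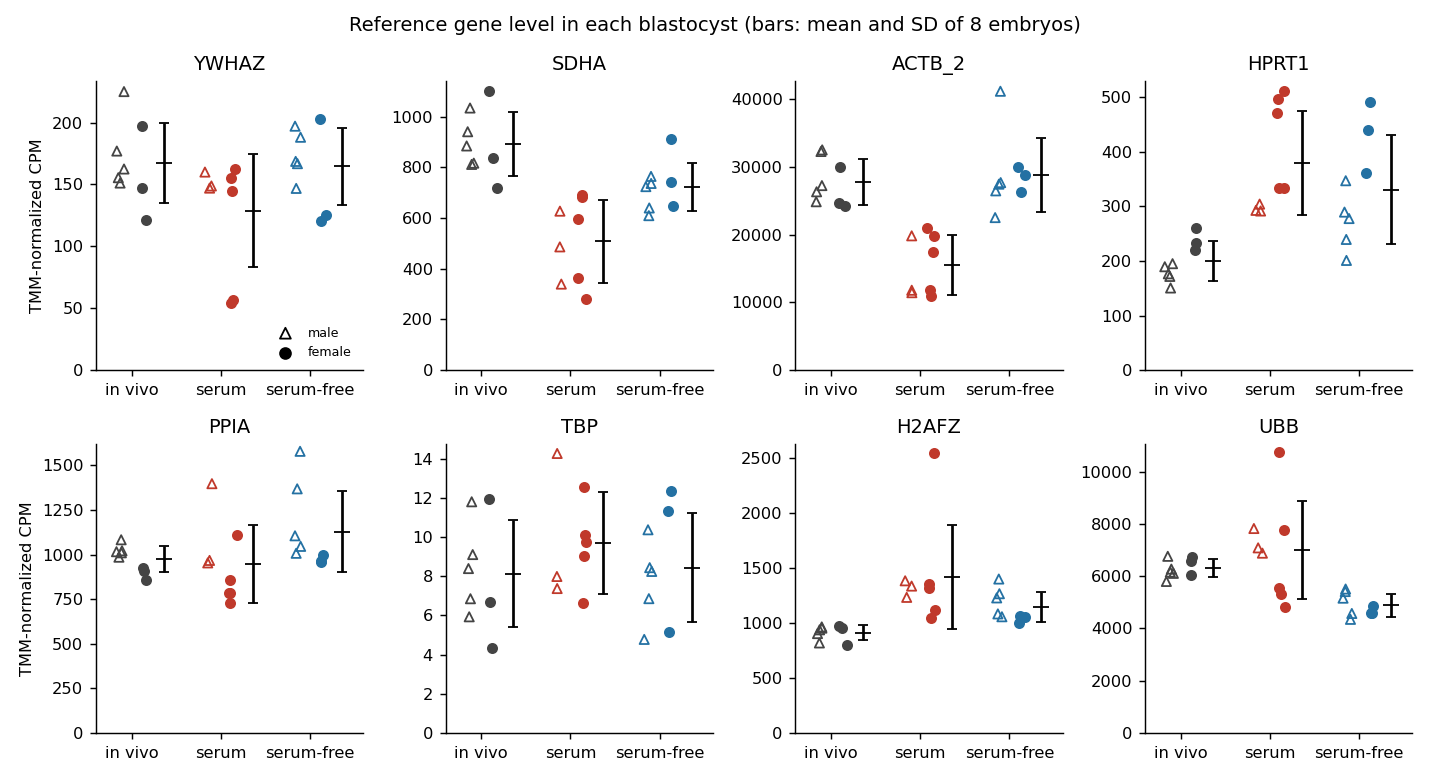
Level of the 8 tested reference rows in each of the 24 blastocysts, as CPM on linear axes from 0; open triangles are male and filled circles female embryos, and the bars give the mean and SD of the 8 embryos of a condition. SDHA and ACTB_2 lie lower in serum, HPRT1 and H2AFZ higher in both cultures, and embryos B2 and B3 are the lowest YWHAZ points at 57.0 and 54.5 CPM.

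Over all members, 4 of the 8 tested rows differed in serum embryos from in vivo derived ones, SDHA and ACTB_2 downwards and HPRT1 and H2AFZ upwards. Among all 7339 genes tested the share called was 28.3%, with 14.8% upwards and 13.4% downwards. The groups did not overlap for any of the 4, against 7.13% of all genes. None changed by 2-fold or more, against 13.8% of all genes, but for SDHA, ACTB_2 and HPRT1 the 95% interval reached past 2-fold. For the other 5 rows the interval lay within 2-fold in either direction, as it did for 48.1% of all genes. The median absolute log2 fold change was 0.51 over the members and 0.44 over all genes. In serum-free embryos 3 rows differed from in vivo, HPRT1 and H2AFZ upwards and UBB downwards, against 5.82% of all 7314 genes (3.38% upwards and 2.45% downwards). None of the 3 reached 2-fold (2.2% of all genes). When all 24 embryos shared 1 fit, HPRT1 alone was called. H2AFZ and UBB did not overlap (0.971% of all genes), and the interval lay within 2-fold for every row except HPRT1 (76.5% of all genes). The median absolute log2 fold change was 0.26 over the members and 0.23 over all genes. Both of these comparisons use the same in vivo derived embryos.

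Between the cultures, ACTB_2 was higher and UBB lower in serum-free embryos than in serum, against 16.3% of 7181 genes called (8.02% higher and 8.29% lower). Neither reached 2-fold (8.91% of all genes). ACTB_2 alone did not overlap (2.37% of all genes), and its interval alone reached past 2-fold, with 49.6% of all genes within. A single test for any difference among the 3 conditions called SDHA, ACTB_2, HPRT1, H2AFZ and UBB, 5 of 8 rows, against 31.5% of 7557 genes. YWHAZ (adjusted p = 0.231), PPIA (adjusted p = 0.223) and TBP (adjusted p = 0.724) were not called by it. For PPIA no bound of the intervals lay further from 0 than 0.59 log2 units in the 3 comparisons.

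**Figure D2:**
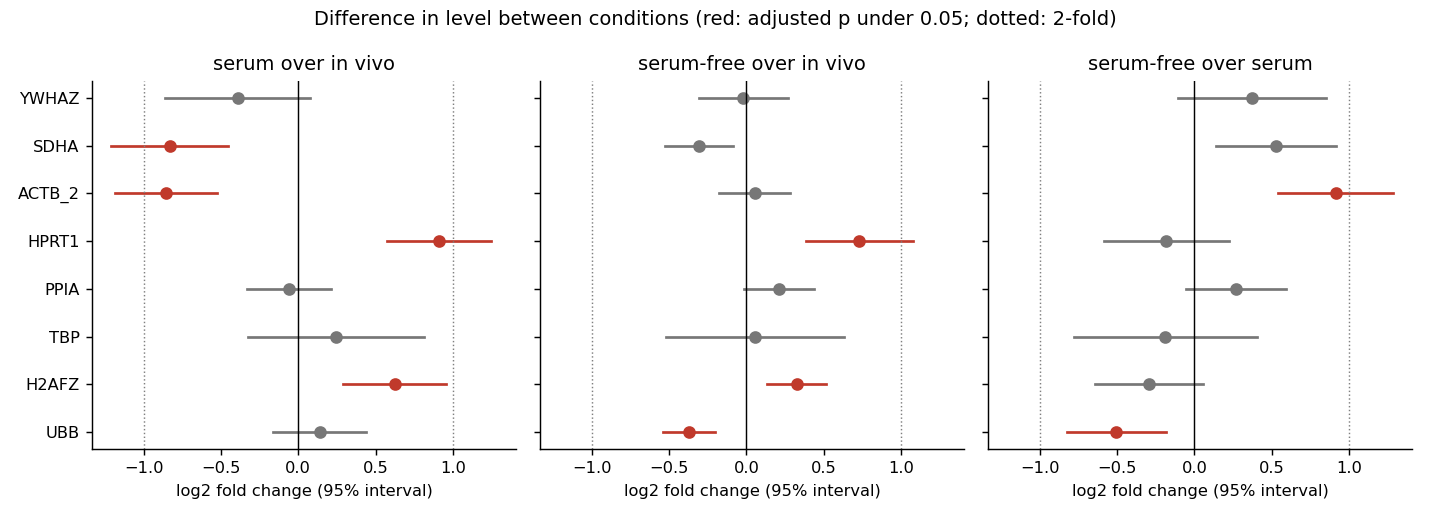
Log2 fold change of each tested reference row with its 95% interval in the 3 comparisons of conditions, 8 embryos against 8; red marks an adjusted p under 0.05 and the dotted lines mark 2-fold. SDHA and ACTB_2 point opposite to HPRT1 and H2AFZ in serum, and no estimate reaches the 2-fold lines.

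Within a condition, stability was described by the SD of log2(CPM + 1) over its 8 embryos. The median SD of the 8 rows was 0.187 in vivo, 0.381 in serum and 0.256 in serum-free embryos. In vivo derived embryos had the lowest SD for all but SDHA and TBP. UBB had an SD of 0.080 there, lower than all but 0.278% of the genes, PPIA 0.110 and H2AFZ 0.112. YWHAZ had 0.272, HPRT1 0.257 and TBP 0.441, the last above the median of all genes (0.373). All tested rows except TBP averaged at least 100 CPM, and the median of the genes at that level was 0.228 in vivo, 0.440 in serum and 0.308 in serum-free embryos, so that YWHAZ and HPRT1 also lay above it in vivo. In serum the SDs ranged from 0.309 for PPIA to 0.669 for YWHAZ, around a median of 0.606 over all genes, and in serum-free embryos from 0.126 for UBB to 0.447 for TBP, with 0.459 over all genes. The SD was higher in serum than in vivo for 7 of the 8 rows, TBP being the exception, and for 82.7% of all genes.

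The differences in spread did not pass a test of absolute deviations with limma in any comparison, which does not show that the spread was alike. None of the 8 rows was called between in vivo and serum (1.28% of all genes called), between in vivo and serum-free (0.0137%), or between the cultures (0.306%). The lowest adjusted p was 0.0852, for ACTB_2 between in vivo and serum. At an unadjusted p under 0.05, that comparison had YWHAZ, SDHA, ACTB_2 and UBB more spread in serum, the comparison of the cultures had YWHAZ, SDHA and ACTB_2, and that of in vivo with serum-free had 0 rows. The share of all genes at this unadjusted limit was not counted, so these rows are not set apart from other genes. Of the genes of at least 100 CPM, 89.5% had a higher SD in serum than in vivo and 77.8% a higher one than in serum-free embryos. The spread of YWHAZ in serum rested on embryos B2 and B3, without which its SD was 0.068, below the 0.272 in vivo. Both were its lowest embryos and were left out after seeing the data, so a lower SD follows from that choice. These embryos had 4558324 and 4242413 fragments counted in exons, near the median. Their trophectoderm markers summed to 322 and 1813 CPM, and embryos B5 and B7, with 519 and 454 CPM, held 160.0 and 149 CPM of YWHAZ. Whether depth or these markers bear on the level of YWHAZ was not tested.

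Over all 24 embryos, which mixes the spread within and between conditions, PPIA had the lowest SD of the members at 0.258, lower than all but 2.71% of the 7557 genes. UBB followed with 0.306 and H2AFZ with 0.344, while YWHAZ (0.480), SDHA (0.487), ACTB_2 (0.519) and HPRT1 (0.520) were the highest. Differences between conditions made up 70.3% of the variance of ACTB_2, 57.7% of that of SDHA and 57.4% of that of HPRT1, but 7.46% of that of TBP, 18.9% of that of PPIA and 20.6% of that of YWHAZ. Such shares hold some sampling spread even where conditions do not differ, and they were not computed over all genes. Among the 2076 genes with a mean of at least 100 CPM, the least variable were EIF3G, a subunit of translation initiation factor 3 (SD 0.143, 367 to 590.1 CPM), SMAP (0.149), ENSBTAG00000010988 (0.163), the chaperonin subunit CCT2 (0.164) and ENSBTAG00000006756 (0.172). PPIA was more variable than 8.57% of these genes and YWHAZ more than 62.5%.

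The geNorm measure M, which PCR studies use to rank references, is the mean SD of a gene's log2 ratios to the other candidates and does not depend on library scaling. Over all embryos M was lowest for PPIA at 0.522 and highest for HPRT1 at 0.701, with 0.605 for YWHAZ and 0.602 for SDHA. Without embryos B2 and B3 YWHAZ had the lowest M at 0.428, followed by H2AFZ at 0.447 and PPIA at 0.451, with HPRT1 again the highest at 0.666. Within conditions the mean M of the 8 rows was 0.307 in vivo, 0.420 in serum-free embryos and 0.595 in serum. YWHAZ had the highest M of the 8 in serum (0.721), and the lowest there (0.342) without embryos B2 and B3, when the mean M in serum was 0.440. Both embryos held the lowest YWHAZ levels and were left out after seeing the data. The low M of YWHAZ without them follows from that choice and is no evidence of stability. The SE of M over all embryos, from leaving out 1 embryo at a time, was 0.054 for PPIA, 0.102 for YWHAZ and 0.118 for H2AFZ.

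Ranked by stepwise removal of the highest M, SDHA and ACTB_2 were the last pair over all embryos (SD of their ratio 0.282) and in serum (0.241), although both fell in serum. Their ratio in serum differed from that in vivo by only 0.01 on the log2 scale, since the genes fell by a like amount. In vivo and in serum-free embryos the last pair was H2AFZ and UBB (0.0748 and 0.193), a pair whose ratio did not overlap between in vivo and either culture. Of the 28 pairs of rows, the largest shift in serum was that of ACTB_2 over HPRT1, which was 3.46-fold lower in serum, followed by SDHA over HPRT1 at 3.44-fold.

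**Figure D3:**
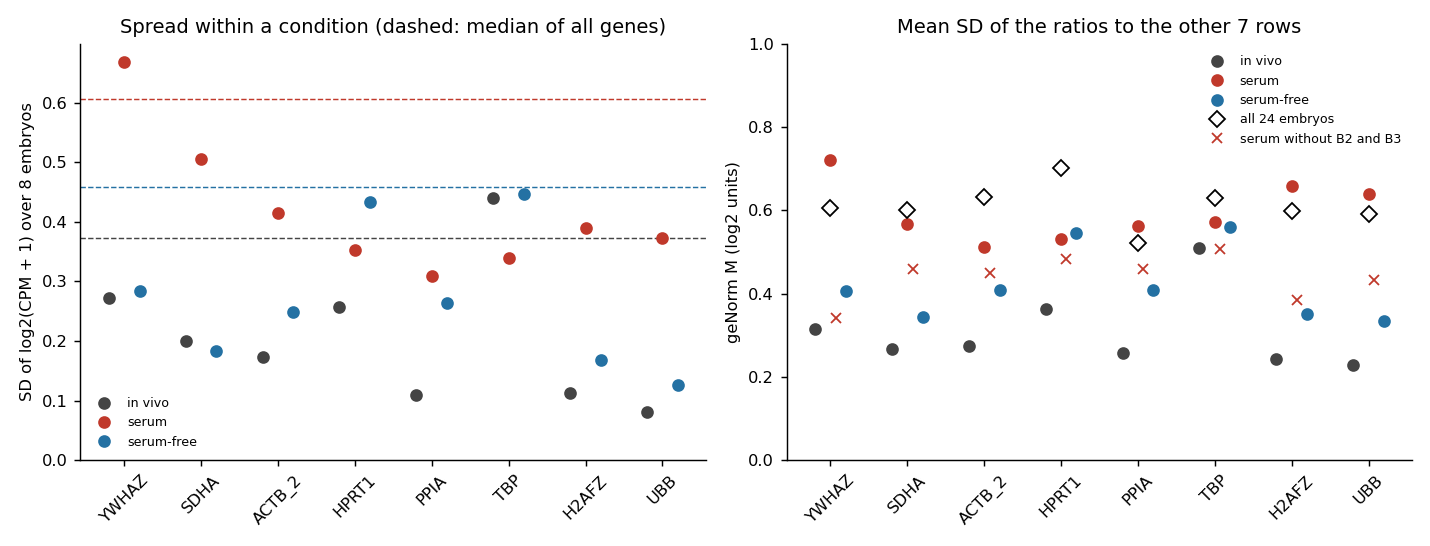
Spread of the tested reference rows: left, SD of log2(CPM + 1) over the 8 embryos of each condition, with dashed lines at the median of all 7557 genes; right, geNorm M within each condition, over all 24 embryos (diamonds) and in serum without embryos B2 and B3 (crosses). Spread in serum exceeds that in vivo for 7 of 8 rows on the left, and the serum value of YWHAZ on the right falls from 0.721 to 0.342 without the 2 embryos.

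HPRT1 differed between the sexes. In female embryos it ranged from 219.6 to 261 CPM in vivo, 334 to 511 CPM in serum and 361 to 491 CPM in serum-free medium. In male embryos it ranged from 150.5 to 195 CPM, 291 to 304 CPM and 201 to 347 CPM. Every female lay above every male of the same condition in all 3 conditions, as it did for 0.529% of all genes. With condition as a covariate, males were lower by −0.54 on the log2 scale, or 1.46-fold (SE 0.10, adjusted p = 0.00220). HPRT1 was the only one of the 8 rows called, against 2.18% of all genes. Within single conditions, with 3 and 5 embryos, the difference was −0.42, −0.54 and −0.66 and did not pass (adjusted p = 0.167, 0.795 and 0.388), where 1.26%, 0.173% and 0.152% of all genes did, although HPRT1 had an unadjusted p under 0.05 in each. The sexes were not balanced across conditions, and with sex as a covariate the increase of HPRT1 was 0.78 in serum (adjusted p = 0.000424) and 0.71 in serum-free embryos (adjusted p = 0.00164).

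PPIA was 1.23-fold higher in males (log2 0.30, SE 0.09), which did not pass (adjusted p = 0.124). In vivo its males lay at 985 to 1083 CPM and its females at 857 to 927 CPM, and in serum-free medium at 1007 to 1579 CPM and 959 to 998 CPM, while in serum the sexes overlapped. HPRT1 and PPIA were the rows whose sexes did not overlap in vivo (9.29% of all genes) and in serum-free medium (6.01%), and HPRT1 was the only one in serum (4.95%). For the other 6 rows the difference lay between −0.07 and 0.26 on the log2 scale. A test of the interaction of sex and condition called no row, with adjusted p of at least 0.875 by edgeR in all 3 comparisons. It called 0 genes over the whole table, and no member had an unadjusted p under 0.05. With groups of 3 to 5 embryos, a missed call does not show that the differences were alike in both sexes. With males only, the 4 rows called in serum were again called, among 19% of all genes, and ACTB_2 reached 2-fold (13.3% of all genes). With females only none was called, among 0.418% of all genes, although the same 4 rows had an unadjusted p under 0.05 there.

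**Figure D4:**
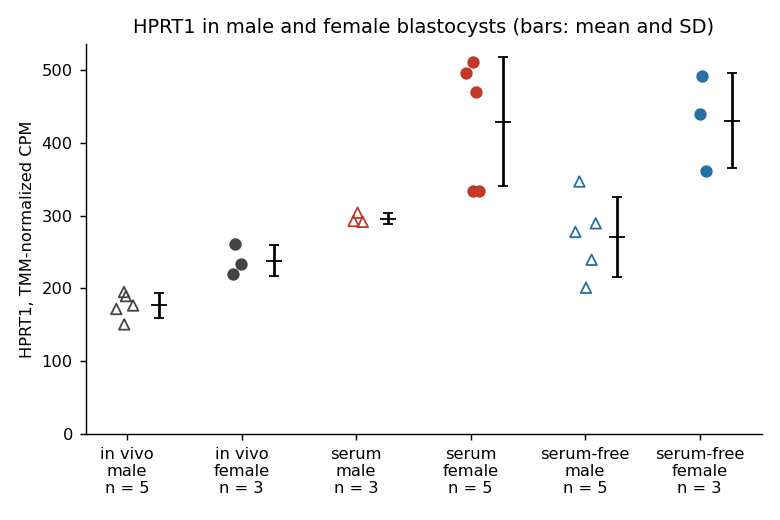
HPRT1 in male (open triangles) and female (filled circles) blastocysts of each condition, in CPM, with the mean and SD of each group of 3 to 5 embryos. Females lie above males in every condition, from 219.6 CPM upwards in vivo against at most 195 CPM.

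The lists of relatives below are described by counts and medians, to be read beside the shares of all genes called and the median log2 fold change of all genes, which was 0.01 in serum and 0.003 in serum-free embryos against in vivo. Of the cytoplasmic actin list, ACTG1 (log2 fold change −0.92), ACTR2 (−0.91) and ACTR3 (−0.81) were lower in serum than in vivo, 3 of 4 tested with a median of −0.86, and all 3 were higher in serum-free embryos than in serum. ACTR2 and ACTR3 form the core of the Arp2/3 complex, which nucleates branched actin. Of complex II and its assembly factors, the membrane anchors SDHC (−0.41) and SDHD (−0.67) were lower in serum, 2 of 5 tested with a median of −0.31, and the iron-sulfur subunit SDHB (−0.39) was lower in serum-free embryos, 1 of 5. Of the 14-3-3 family, SFN (−3.35) was lower in serum and the other 4 tested did not pass, with a median of −0.24.

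Of the purine salvage list, PNP (1.51), which splits purine nucleosides into base and sugar, was higher in serum and 4 others did not pass, with a median of 0.06. Of the cyclophilins, PPIG (0.64) and PPIH (0.75), both linked to splicing, were higher in serum, 2 of 9 with a median of 0.08. Of TFIID, TAF3 (1.12) and TAF13 (0.69) were higher in serum, 2 of 10 with a median of 0.44, and TAF13 (0.56) in serum-free embryos. Of the H2A variants, H2AFV (0.44), a near copy of H2AFZ, was higher in serum, 1 of 4 with a median of 0.16. Of glycolysis, ALDOA (−0.66) was lower in serum, 1 of 4 tested with a median of −0.54. In serum-free embryos the list medians lay between −0.095 and 0.13. None of the cyclophilin, purine salvage, H2A, actin, 14-3-3 or glycolysis genes passed between serum-free and in vivo derived embryos.

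Between the cultures, the remaining calls on these lists were as follows. In serum-free embryos PPIB (1.27), SFN (3.67), SDHC (0.53) and SDHD (0.71) were higher than in serum. PPIG (−0.69), PPIH (−0.74), PNP (−1.23), TAF5 (−1.11), TAF7 (−0.93) and H2AFV (−0.43) were lower.

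Of 32 other genes used as references, 25 were tested against serum, of which 8 were higher, 3 lower and 14 did not pass. Among those higher were RPS9 (0.67), TFRC (1.13), POLR2A (1.78), CNOT11 (1.36), EIF2B2 (0.91), EIF3K (0.53) and ALAS1 (0.67), and among those lower B2M (−0.58) and ACTG1. The median log2 fold change of the list was 0.04, against 0.01 over all genes. TFRC, the transferrin receptor, POLR2A, the largest subunit of RNA polymerase II, and CNOT11 exceeded 2-fold, which no member did. In serum-free embryos ALAS1 (0.53) alone of 25 differed from in vivo. Between the cultures PPIB and ACTG1 were higher and EIF2B2 (−0.59) lower in serum-free embryos, with 22 that did not pass.

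The genes whose deviations from the condition mean, on the log2(CPM + 1) scale, followed those of a member most closely over the 24 embryos, among 5383 genes with a mean of at least 20 CPM, were ST13 for YWHAZ (Pearson's r = 0.88), NAALAD2 for SDHA (0.88), P2RX4 for ACTB_2 (0.87), PQBP1 for HPRT1 (0.82), ENSBTAG00000033806 for PPIA (0.96), MELK for TBP (0.75), DDX39 for H2AFZ (0.89) and POLR2J for UBB (0.86). Spearman's correlation of the same deviations was 0.72 (H2AFZ) to 0.92 (PPIA). With the condition means kept, Pearson's r was 0.54 (UBB) to 0.96 (PPIA). These genes are given as a description, since each is the highest of many correlations and all values share the same libraries and the same scaling.

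YWHAZ and SDHA, with GAPDH, were the references by which the study normalized PCR of PHGDH, HMGCS1, IDI1 and SFN. PHGDH opens serine synthesis, HMGCS1 and IDI1 belong to the mevalonate pathway, and SFN is 14-3-3 sigma. These targets were chosen on these samples, so that their direction is no independent evidence. In the fit over all genes, 1 of the 4 was called in serum (SFN −3.35), and in serum-free embryos PHGDH (1.71), HMGCS1 (2.88) and IDI1 (1.99) were. The serum-free embryo C7 held 1451 CPM of HMGCS1 and 320 CPM of IDI1, the highest of its group. Without it the group means were 162 CPM in place of 323 CPM and 37.8 CPM in place of 73.1 CPM. The log2 fold change of HMGCS1 was then 1.88 (adjusted p = 0.00716 by edgeR) and that of IDI1 1.05, which did not pass (adjusted p = 0.0609 by edgeR). IDI1 also did not pass without the in vivo derived A2 (1.90, adjusted p = 0.0510 by edgeR). Here the counts of each target were divided by the geometric mean of YWHAZ and SDHA in the same embryo and compared by a two-sided exact permutation test, 8 against 8, adjusted over 8 tests. The ratio of YWHAZ to SDHA itself was 1.33-fold higher in serum than in vivo and 1.22-fold higher in serum-free embryos. Neither difference passed (adjusted p = 0.0685 for each, over 3 exact permutation tests), and the groups overlapped in both comparisons.

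Over this pair of references, 5 of the 8 differences passed. SFN was lower by −3.37 on the log2 scale in serum (adjusted p = 0.00186, exact permutation test). HMGCS1 was higher by 1.22 in serum (adjusted p = 0.0196, exact permutation test). In serum-free embryos PHGDH was higher by 2.10 (adjusted p = 0.00186), HMGCS1 by 2.12 (adjusted p = 0.00207) and IDI1 by 1.46 (adjusted p = 0.0196), all by the exact permutation test. PHGDH (−0.07) and IDI1 (0.40) in serum and SFN (0.06) in serum-free embryos did not pass. These are differences of mean log2 ratios, whereas the fit over all genes compared mean counts, so its fold changes are not set against them. On the same measure with no reference, on the TMM scale, the serum-free differences were 1.93 for PHGDH, 1.95 for HMGCS1 and 1.30 for IDI1. Each was below that over YWHAZ and SDHA.

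The choice of reference decided the call of HMGCS1 in serum. Over SDHA alone the difference was 1.43 and over ACTB_2 alone 1.43, and both passed (adjusted p = 0.00342 and 0.00207, exact permutation tests). Over YWHAZ alone it was 1.02, over PPIA alone 0.62, over all 8 rows 0.60, and on the TMM scale with no reference 0.55, and none of these passed (adjusted p = 0.106, 0.226, 0.184 and 0.211, exact permutation tests). Over HPRT1 alone it was −0.36 (adjusted p = 0.308, exact permutation test). Without embryos B2 and B3 the difference over YWHAZ and SDHA was 0.68 (adjusted p = 0.0794, exact permutation test), so the call also rested on these 2 embryos.

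IDI1 in serum was 0.40 higher over YWHAZ and SDHA, −0.27 on the TMM scale and −1.18 over HPRT1, the last passing (adjusted p = 0.0106, exact permutation test). In serum-free embryos the differences of HMGCS1 and IDI1 over HPRT1 fell to 1.26 and 0.61 and did not pass (adjusted p = 0.150 and 0.400, exact permutation tests). IDI1 in serum-free embryos did not pass over YWHAZ alone, PPIA alone or all 8 rows either (adjusted p = 0.0507, 0.0852 and 0.0625, exact permutation tests), and its difference there was 1.32, 1.11 and 1.23. The decrease of SFN in serum passed over each of the 8 references, from −3.16 over ACTB_2 to −4.95 over HPRT1, and so did the increase of PHGDH in serum-free embryos, from 1.24 over HPRT1 to 2.24 over SDHA.

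**Figure D5:**
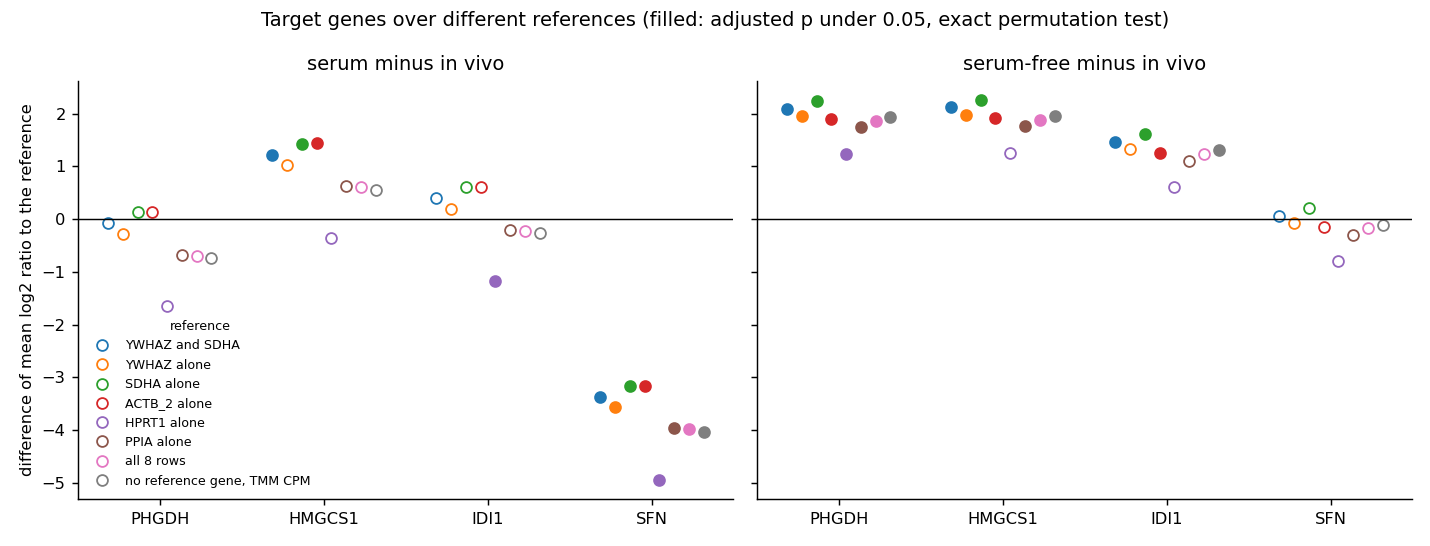
Difference of the mean log2 ratio of 4 target genes to 8 choices of reference, serum (left) and serum-free (right) against in vivo derived embryos, 8 against 8; filled points have an adjusted p under 0.05 by the exact permutation test. SFN in serum and PHGDH in serum-free embryos are filled for every reference, while HMGCS1 in serum is filled for YWHAZ and SDHA, SDHA alone and ACTB_2 alone, and lies below 0 for HPRT1.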

How the data were processed

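Single-embryo libraries were aligned by the authors to UMD3.1 with CLC Genomics Workbench, and raw counts of uniquely mapped exon fragments were deposited for each gene. The cDNA kit does not mark strand, so overlapping antisense transcripts cannot be separated. All 24 columns were matched to an embryo by name. The members, lists and tests were chosen with earlier results of these data known. All members are named, with the list genes that passed, except for some genes and 1 list that are not reported here.

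Genes with at least 15 counts in every embryo of 1 group compared were tested with edgeR 4.0.16 (R 4.3.3), with TMM scaling, the quasi-likelihood test and Benjamini-Hochberg adjustment over all genes tested, at an adjusted p under 0.05. CPM are counts relative to all exon counts times the TMM factor. Spread was tested with limma 3.58.1 on absolute deviations of log2(CPM + 1). Ratios used log2(count + 0.5). The SE is approximate, from the estimate and its F statistic. Alternatives included DESeq2 1.42.0 and other filters and scalings. The scripts were tested on simulated data. The labels give no batch, and p-values measure the spread between embryos. The in vivo derived embryos came from 3 cows and the cultured ones from 3 in vitro runs. The limit at 0 covers counting error only.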

Additional observations from a re-analysis of the deposited data

Results flagged for a closer look

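H2AFZ in the serum embryo B2 was 2543 CPM, far above the next of the 8 serum embryos at 1384 CPM. The gap was 0.686 of the whole range, above Dixon's critical value of 0.526. This was 1 of 27 groups of 8 embryos examined, and chance flags about 1 in 20. Without embryos B2 and B3, H2AFZ averaged 1239 ± 133 CPM in serum (SD, n = 6). The same embryo had the highest UBB (10753 CPM), the lowest SDHA (279 CPM) and the lowest ACTB_2 (10983 CPM) of all 24.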

How the results depend on the processing

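Between in vivo and serum, the count of 4 members called was kept, with the same genes, in all 16 fits that left out 1 embryo (4 to 4) and without B2 and B3, but was 0 in females only. With males only, ACTB_2 made the 2-fold count 1 against serum and 1 between the cultures. Between in vivo and serum-free, the 3 calls were 2 to 4 when 1 embryo was left out, 1 when 1 fit held all 24 embryos, and 0 in males only and 0 in females only. Between the cultures, the 2 calls were 1 to 3 when 1 embryo was left out (1 without B3, C10 or C7), 1 with genes of at least 1 count, 1 in males only, 0 in females only and 1 without B2 and B3. The cause was not tested, beyond the smaller number of embryos in some of these fits. The 1 call between the sexes was 0 within each condition. Embryos shared a number but were not paired by it (correlations of same-numbered deviations −0.127 to 0.088, none of 7 above 0.1 in any comparison). With the replicate block the counts were 3, 0 and 0, HPRT1, UBB and H2AFZ losing their calls in serum-free embryos and H2AFZ in serum (adjusted p = 0.0516), and the block turned YWHAZ to 0.082 and TBP to −0.032 in serum-free embryos. The mean geNorm M was 0.515 without B2 and B3, and 0.554 to 0.622 when 1 embryo was left out. Of the 8 target differences, 5 passed over YWHAZ and SDHA, 3 over YWHAZ alone, 3 over PPIA, 3 over all 8 rows, and 3 over HPRT1, where IDI1 in serum was one that had not passed over YWHAZ and SDHA. HPRT1 and PPIA as single references, leaving out B2 and B3, and leaving out single embryos for the targets in the fit over all genes, were chosen after seeing the data.

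Of the signs that turned, that of HMGCS1 in serum belonged to a difference that had passed, and the others to differences that had not. PPIA in serum was 0.0020 without TMM factors, 0.0044 with sex as a covariate, 0.10 in males, and −0.13 to 0.0057 when 1 embryo was left out. UBB in serum was −0.0025 without B2 and B3. In serum-free embryos YWHAZ was 0.0071 with thinned counts, 0.0097 in males and −0.065 to 0.065 without 1 embryo, TBP −0.11 in males and −0.035 to 0.16, and ACTB_2 −0.035 to 0.11. The spread difference of YWHAZ was −0.15 in serum and 0.17 between the cultures without B2 and B3, and −0.0014 in serum-free embryos around means by sex. Without 1 embryo, spread differences in serum-free embryos were −0.027 to 0.081 (YWHAZ), −0.049 to 0.0061 (SDHA) and −0.051 to 0.043 (ACTB_2). SFN in serum-free embryos was −0.081, −0.15, −0.80, −0.30, −0.18 and −0.10 over YWHAZ, ACTB_2, HPRT1, PPIA, all 8 rows and on the TMM scale, and −0.26 to 0.25 without 1 embryo. PHGDH in serum was 0.13 over SDHA, 0.14 over ACTB_2 and −0.60 to 0.52 without 1 embryo. HMGCS1 in serum was −0.36 over HPRT1. IDI1 in serum was −1.18, −0.20, −0.22 and −0.27 over HPRT1, PPIA, all 8 rows and on the TMM scale, the first of these passing. Of all values recomputed, 1807 kept their direction and call, 50 lost and 8 gained a call, 51 turned and 28 moved. Depth limits TBP most, with 18 to 127 counts.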
